A study of Mus musculus with 6 samples.

Results

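The 10 genes described here are the circadian clock genes *Arntl*, *Npas2*, *Clock*, *Per1*, *Per3*, *Cry1*, *Nr1d1* and *Nr1d2* and the output factors *Dbp* and *Tef*, taken by name from the gene column of the deposited table. All 10 were found, each in 1 of the 12792 rows, and all 10 had values above 0 in all 6 libraries. The libraries are polyadenylated RNA from livers of mice with established tumours of Hepa 1-6, a mouse hepatoma line. The labels give 3 libraries as wild type (WT) and 3 as knockout of *Akr1d1* (KO), whose enzyme reduces steroids and bile acid precursors at the 5-beta position. Both groups carry the tumour, and no tumour-free liver is compared here. The labels give no hour of collection, light schedule, feeding state, strain, age or sex, do not say whether the pieces held tumour tissue, and do not tie each library to an animal of its own. The spread within a group, on which every p-value rests, may thus be technical.

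The liver clock is a loop of transcription factors. ARNTL (also called BMAL1) pairs with CLOCK or its relative NPAS2, binds E-box sequences and switches on the *Per* and *Cry* genes, whose proteins then block that pair, and the *Nr1d* genes, whose proteins repress *Arntl*, *Npas2* and *Clock* through sequences called ROREs. DBP and TEF, themselves driven by the same pair, carry the rhythm through D-box sequences to genes of liver metabolism. In mouse liver the transcripts therefore fall into a morning arm, highest from late night to dawn (*Arntl*, *Npas2*, *Clock* and *Cry1*), and an evening arm, highest from day to dusk (*Per1*, *Per3*, *Nr1d1*, *Nr1d2*, *Dbp* and *Tef*), and a liver sampled at another phase has 1 arm higher and the other lower.

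The sequence elements of this loop could be read in the RefSeq promoter table (build GRCm38.p6), whose windows reach from 250 bases before to 50 bases after each listed start and which holds 15 windows for the 10 genes. The stretches printed here were chosen because they hold the elements through which the arms are wired, with the matches in capitals. *Cry1* (chr10:85185055-85185304, minus strand) held the E-box CACGTG at 60 bases before its start and a variant CACGTT, read on the other strand as AACGTG, at 79 bases. *Per1* (chr11:69098699-69098948, plus strand) held 1 E-box at 166 bases, and *Tef* (chr15:81811164-81811413, plus strand) 1 at 138 bases. *Per3* (chr4:151044666-151044915, minus strand) held the D-box TTATGTAA at 205 and again at 158 bases. The last line is a site of 29 bases in *Arntl* (chr7:113207530-113207558, plus strand) with the RORE core TAGGTCA, which begins at base 31 after the later of the gene's listed starts.

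Cry1: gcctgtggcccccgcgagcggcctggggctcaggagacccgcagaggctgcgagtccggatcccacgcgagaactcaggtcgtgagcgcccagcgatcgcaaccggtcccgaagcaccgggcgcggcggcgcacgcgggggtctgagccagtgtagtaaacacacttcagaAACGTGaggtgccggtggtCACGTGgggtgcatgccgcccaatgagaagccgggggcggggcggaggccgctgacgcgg

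Per1: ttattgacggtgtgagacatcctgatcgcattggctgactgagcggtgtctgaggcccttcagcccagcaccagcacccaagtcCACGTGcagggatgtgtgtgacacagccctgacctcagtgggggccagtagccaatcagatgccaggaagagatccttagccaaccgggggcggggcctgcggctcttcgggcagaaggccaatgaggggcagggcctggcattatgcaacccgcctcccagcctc

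Tef: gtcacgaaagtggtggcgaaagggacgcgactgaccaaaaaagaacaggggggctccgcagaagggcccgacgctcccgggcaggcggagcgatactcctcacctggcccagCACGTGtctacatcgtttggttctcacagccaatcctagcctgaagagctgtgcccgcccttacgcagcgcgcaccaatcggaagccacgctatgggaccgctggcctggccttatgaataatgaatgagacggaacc

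Per3: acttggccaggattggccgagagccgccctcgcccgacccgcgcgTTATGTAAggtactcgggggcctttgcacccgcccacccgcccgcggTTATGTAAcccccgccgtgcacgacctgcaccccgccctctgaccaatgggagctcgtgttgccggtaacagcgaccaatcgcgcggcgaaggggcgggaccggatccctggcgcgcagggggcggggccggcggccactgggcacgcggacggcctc

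Arntl: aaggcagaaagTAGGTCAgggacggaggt

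Read on both strands, CACGTG stood in 4 of the 15 windows (3 genes, *Cry1*, *Per1* and *Tef*) and in 7.15% of all 32851 windows in the table. CACGTT stood in 2 windows, those of *Cry1* and *Nr1d1*, against 4.68% of all. TTATGTAA stood in 1 window against 0.938% of all, and the looser TTANNTAA, which includes it, in 2 windows (*Per3* and *Tef*) against 6% of all. The RORE cores TAGGTCA and TGGGTCA stood in 1 window, that of *Arntl*, against 6.45% of all. These are matches of letters only, and a window without a match says nothing of elements farther away.

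Each deposited value is the gene's expression in a library divided by its own mean, so levels can be compared between libraries of 1 gene and not between genes. The targeted gene went against the labels: *Akr1d1* was at 0.826, 0.697 and 0.881 in WT replicates 1 to 3 and at 1.22, 1.21 and 1.35 in KO replicates 1 to 3, so that every library labelled KO was above every library labelled WT (limma adjusted p = 0.17). A value for the whole gene does not tell which part was deleted. WT and KO therefore stand for the labels throughout, and each direction is between libraries as labelled. Relative depth, estimated from rows that hold a 0, spanned 1.24-fold over the libraries, and total reads are unknown. Of 10 hepatocyte markers 9 were tested and all 9 were above 0 in every library, which for ratios shows presence and not abundance.

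None of the 10 clock genes passed the test between the labelled groups (limma on log2(value + 0.1), Benjamini-Hochberg adjusted p under 0.05), where 0.0159% of the 12578 rows tested, 2 rows, did. The smallest adjusted p among the 10 was 0.439, and 0 of the 10 had an unadjusted p under 0.05, against 6.5% of all rows with higher and 5.53% with lower values in KO. Of the morning arm 3 of 4 genes had a positive log2 change and of the evening arm 5 of 6 a negative one, while 6165 of all 12578 rows were positive. The median log2 change was 0.22 for the morning arm, -0.28 for the evening arm and -0.004 for all rows tested. In bulk tissue, fewer cells that use a gene and less RNA per cell cannot be told apart.

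**Figure D1:**
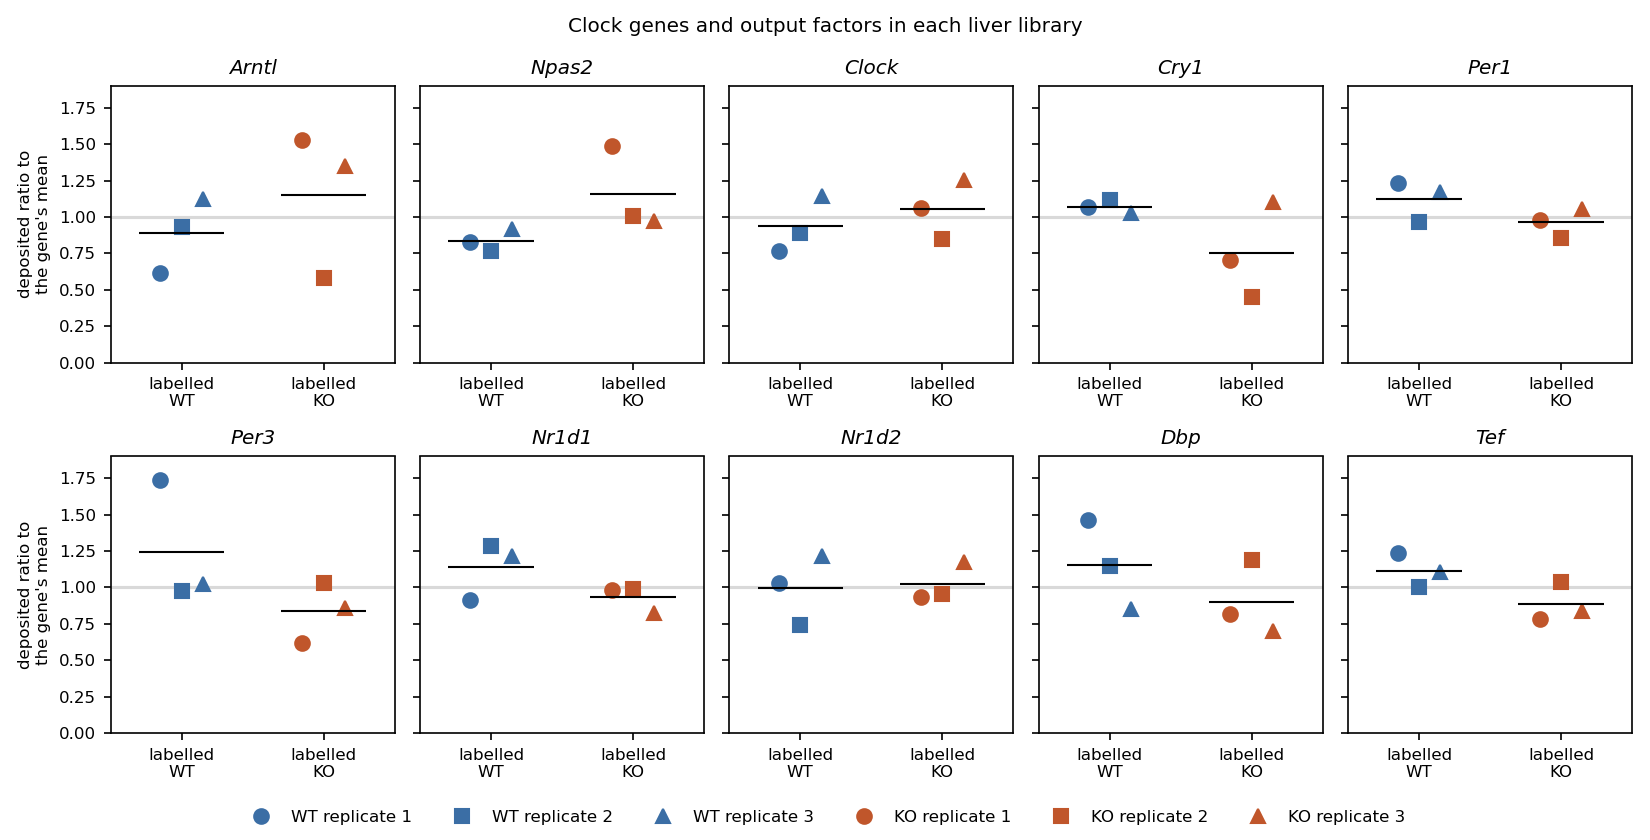
Deposited ratio to the gene's own mean (y axis, linear) for each of the 10 genes in the 3 libraries labelled WT (blue) and the 3 labelled KO (orange), with marker shape for the replicate and a black line for the group mean. *Npas2* is the one gene without overlap, and *Arntl* runs from 0.580 to 1.53 within the KO label.

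In the activating limb of the morning arm, *Arntl* (chromosome 7, 113207465 to 113314126, plus strand in GENCODE M21, build mm10, as for the genes that follow), the core activator, was at 0.613, 0.929 and 1.13 in WT replicates 1 to 3 and at 1.53, 0.580 and 1.35 in KO replicates 1 to 3. KO replicates 1 and 3 were the highest of all libraries and KO replicate 2 the lowest, so the groups overlapped fully. The means were 0.889 ± 0.259 and 1.15 ± 0.505 (SD, n = 3 each), with a log2 change of 0.28 (SE 0.38, 95% interval -0.67 to 1.22, limma adjusted p = 0.816). *Clock* (chromosome 5, 76209868 to 76304792, minus strand), its partner, was at 0.767, 0.893 and 1.14 in WT and at 1.06, 0.848 and 1.25 in KO. In each labelled group its lowest library was the one where *Arntl* was lowest, and the groups overlapped. Its log2 change was 0.16 (SE 0.19, 95% interval -0.30 to 0.62, adjusted p = 0.777).

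*Npas2* (chromosome 1, 39193731 to 39363236, plus strand), which can stand in for *Clock*, was at 0.825, 0.764 and 0.921 in WT and at 1.49, 1.01 and 0.972 in KO. Every KO library was above every WT library, as in 8.86% of all rows tested, and KO replicate 1 was far above the other two KO libraries. Mean values of 0.836 ± 0.0791 in WT and 1.16 ± 0.289 in KO (SD, n = 3 each) gave a ratio of 1.38, with a log2 change of 0.40 (SE 0.17, adjusted p = 0.441).

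*Cry1* (chromosome 10, 85131700 to 85185064, minus strand), a repressor of the ARNTL pair placed in the morning arm for its late-night peak, did not follow the other 3 genes. It was at 1.07, 1.12 and 1.03 in WT and at 0.705, 0.451 and 1.10 in KO. The WT libraries lay close together, and of the KO libraries replicate 3 lay within them and replicates 1 and 2 below. The log2 change was -0.53 (SE 0.28, 95% interval -1.21 to 0.15, adjusted p = 0.52), the most negative of the 10. In KO replicate 2, *Cry1* and *Arntl* were both at their lowest.

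Among the repressors of the evening arm, *Per3* (chromosome 4, 151003652 to 151044665, minus strand) was at 1.74, 0.973 and 1.02 in WT and at 0.620, 1.03 and 0.860 in KO. WT replicate 1 was the highest and KO replicate 1 the lowest, with KO replicate 2 above WT replicates 2 and 3. The log2 change was -0.50 (SE 0.27, 95% interval -1.16 to 0.16, adjusted p = 0.523). *Per3* overlaps *Camta1* on the same strand in GENCODE M21, and *Camta1* had the values 0.795, 1.16 and 0.893 in WT and 1.204, 0.663 and 1.45 in KO. Within KO it was lowest in replicate 2, where *Per3* was highest. *Per1* (chromosome 11, 69095217 to 69109960, plus strand), which also responds at once to hormones and feeding, was at 1.23, 0.968 and 1.17 in WT and at 0.977, 0.857 and 1.05 in KO. It had the smallest spread of the 10, and its groups overlapped (log2 change -0.20, SE 0.12, adjusted p = 0.572).

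The nuclear receptor gene *Nr1d1* (chromosome 11, 98767932 to 98775333, minus strand) encodes REV-ERB alpha, which represses *Arntl*. It was at 0.913, 1.28 and 1.21 in WT and at 0.981, 0.993 and 0.824 in KO. WT replicates 2 and 3 were the highest, and WT replicate 1 lay within the KO range. Its log2 change was -0.25 (SE 0.15, 95% interval -0.62 to 0.11, adjusted p = 0.556). Its relative *Nr1d2* (chromosome 14, 18204054 to 18239127, minus strand), which encodes REV-ERB beta, was at 1.03, 0.742 and 1.22 in WT and at 0.933, 0.955 and 1.17 in KO. The KO values all lay inside the WT range, and the log2 change was 0.05 (SE 0.19, adjusted p = 0.936), with a 95% interval from -0.41 to 0.51. Without WT replicate 2 it was -0.13 and without KO replicate 3 it was -0.05, so its sign depends on 1 library.

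Of the output factors, *Dbp* (chromosome 7, 45705088 to 45710203, plus strand) was at 1.47, 1.14 and 0.854 in WT and at 0.817, 1.19 and 0.698 in KO. WT replicate 1 and KO replicate 2, lowest for *Arntl*, were the highest for *Dbp*, and KO replicates 1 and 3, highest for *Arntl*, were the lowest for *Dbp*. The log2 change was -0.33 (SE 0.25, 95% interval -0.94 to 0.29, adjusted p = 0.654). *Tef* (chromosome 15, 81802421 to 81826863, plus strand), of the same PAR bZIP family, was at 1.24, 1.00 and 1.11 in WT and at 0.782, 1.04 and 0.837 in KO. Only KO replicate 2 reached the WT range, being above WT replicate 2. The log2 change was -0.31 (SE 0.13, 95% interval -0.63 to 0.02, adjusted p = 0.439), and the ratio of means was 0.794.

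In GENCODE M21 *Nr1d1* overlaps *Thra* and *Dbp* overlaps *Sphk2*, each on the opposite strand. *Arntl* and *Tef* each overlap an antisense gene and *Npas2* a pseudogene, also on the opposite strand. The sources used here do not say whether counting used strand. *Thra* had a log2 change of -0.14 (adjusted p = 0.726) and *Sphk2* of 0.01 (adjusted p = 0.976). *Sphk2* ran from 0.886 to 1.16 over the 6 libraries. Ratios to a gene's own mean do not tell how many reads an overlapping gene could add, and this was not tested.

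**Figure D2:**
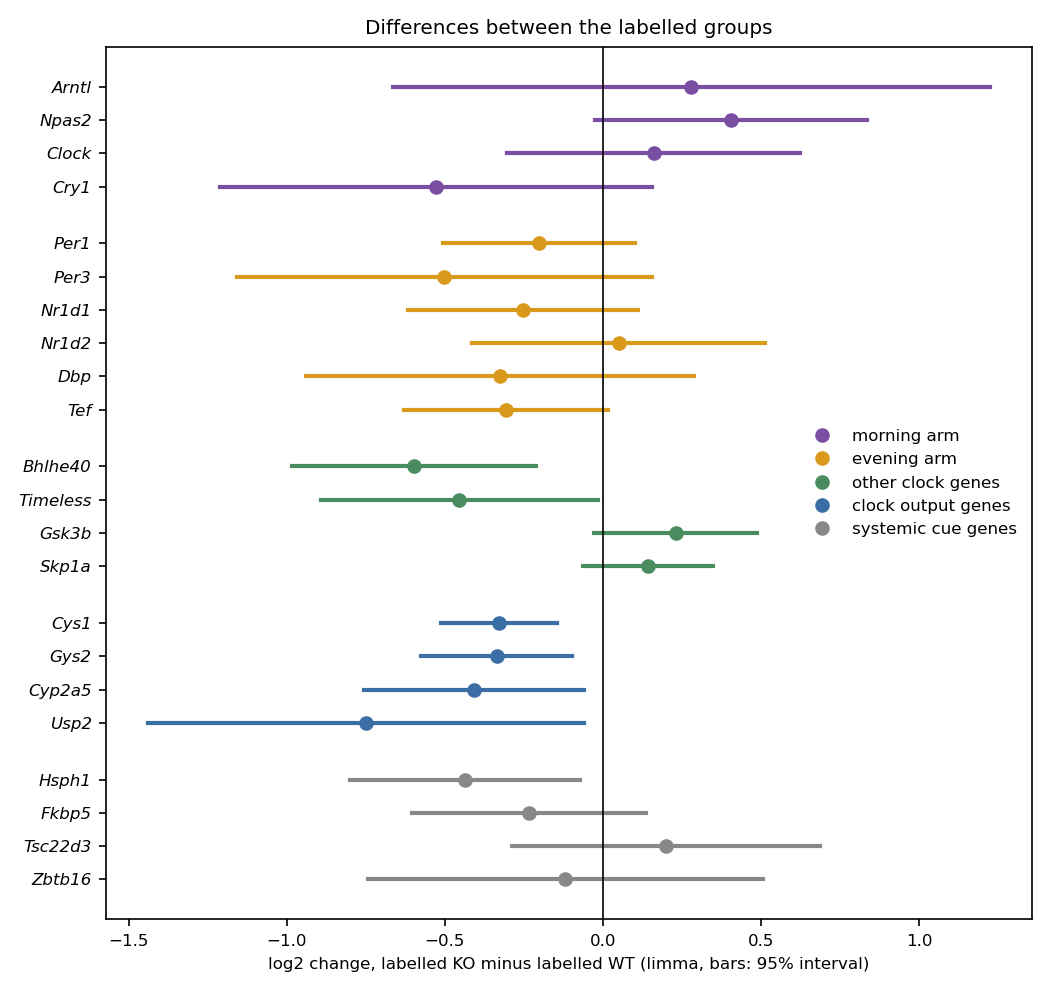
Log2 change of KO-labelled minus WT-labelled libraries (x axis, points) with limma's 95% interval (bars) for the 10 genes, and for the 4 genes with the smallest p of each of 3 further lists. The intervals of all 10 clock genes include 0, with *Npas2* from -0.02 to 0.83 and *Tef* from -0.63 to 0.02.

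The arms were compared library by library, as the mean of each arm's log2(value + 0.1) values centred per gene. The morning arm was at -0.21, -0.04 and 0.14 in WT replicates 1 to 3 and at 0.25, -0.40 and 0.27 in KO replicates 1 to 3. The evening arm was at 0.28, -0.001 and 0.11 in WT and at -0.23, -0.002 and -0.15 in KO. In 3 of the 6 libraries the arms had opposite signs, namely WT replicate 1 with the evening arm above, and KO replicates 1 and 3 with the morning arm above. In WT replicate 3 both were positive, in KO replicate 2 the morning arm alone was far from 0, and in WT replicate 2 both were near 0.

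Between the labelled groups the arm means differed in opposite directions. For the morning arm and for morning minus evening the difference was smaller than the range within either label, and for the evening arm it lay between the range within KO and the range within WT. The morning arm differed by 0.08 (WT -0.04 ± 0.17, KO 0.04 ± 0.38; SD, n = 3 each), and the groups overlapped. The evening arm differed by -0.26 (WT 0.13 ± 0.14, KO -0.13 ± 0.12), with every KO library below every WT library, though KO replicate 2 (-0.002) and WT replicate 2 (-0.001) were almost equal. Morning minus evening was -0.49, -0.04 and 0.03 in WT and 0.48, -0.40 and 0.42 in KO. The difference of the means was 0.34, against a range of 0.52 within WT and of 0.89 within KO. KO replicate 2 stood beside WT replicate 1 on this measure, and without KO replicate 2 the difference was 0.62. It was 0.17 without WT replicate 1, 0.18 without KO replicate 1 and 0.21 without KO replicate 3. With *Cry1* left out of the morning arm, a choice made after its values were seen, it was 0.54. No p is given for these scores, because the genes were chosen with earlier results of these data known.

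**Figure D3:**
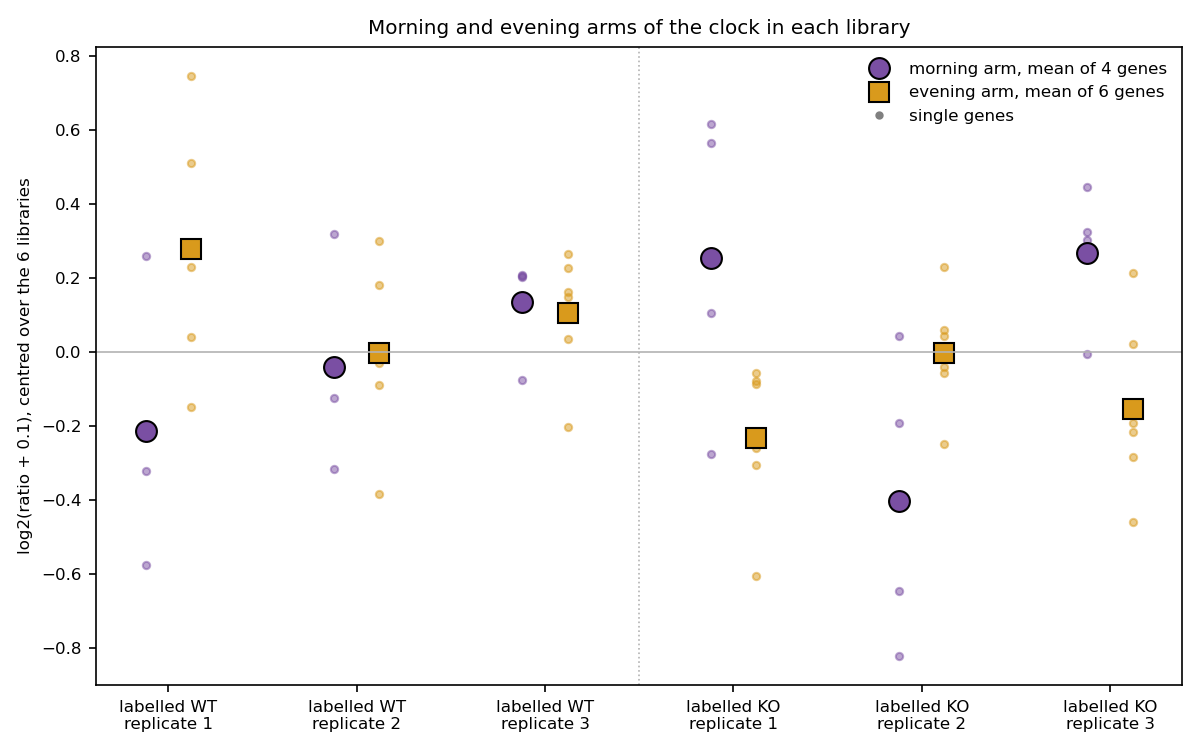
Mean centred log2(ratio + 0.1) of the morning arm (purple circles, 4 genes) and the evening arm (yellow squares, 6 genes) in each library (x axis), with single genes as small dots. The arms stand apart in WT replicate 1 with the evening arm above (0.28 against -0.21) and in KO replicate 1 with the morning arm above (0.25 against -0.23), while KO replicate 2 (-0.40 against -0.002) lies apart from the other KO libraries.

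The spread over the libraries differed widely among the 10. The highest library was 2.80 times the lowest for *Per3*, 2.64 times for *Arntl*, 2.47 times for *Cry1*, 2.1 times for *Dbp* and 1.95 times for *Npas2*. It was between 1.44 times (*Per1*) and 1.64 times (*Nr1d2*) for the other 5 genes. All 10 were above the median of 1.42 over the 12410 rows above 0 in every library, and 10.3% of those rows had a larger fold than *Per3*. Much of this lay inside a label: *Arntl* spanned 2.64-fold within KO and 1.84-fold within WT, and *Dbp* 1.70-fold and 1.72-fold, whereas *Cry1* spanned 2.44-fold within KO and 1.09-fold within WT.

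Likeness of pattern was measured as the root mean square difference of centred log2 values over the 6 libraries, among 11723 genes. A flat gene would lie at 0.479 from *Arntl*. *Clock* was at rank 74 (0.304) and *Npas2* at rank 700 (0.401), while *Dbp* was at rank 11040 (0.792) and *Per3* at rank 11167 (0.832). *Cry1*, also of the morning arm, was at rank 7162 (0.530), farther from *Arntl* than a flat gene. Against the mirror image of *Arntl*, a comparison added after the values were seen, *Dbp* was at rank 12 (0.232), *Per3* at rank 66 (0.294) and *Tef* at rank 187 (0.341). *Nr1d2* (rank 8500, 0.564), *Nr1d1* (rank 6529, 0.515) and *Per1* (rank 6486, 0.514) were farther from that mirror image than a flat gene. The evening arm thus held genes that mirrored *Arntl* over these libraries and genes that did not.

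Outside the 10, 3 further clock or clock output genes, named after their values were seen, lay near the mirror image of *Arntl*. They are not the 3 nearest of the lists, since the output gene *Ccrn4l* was at rank 177 (0.339), nearer than *Ciart*. *Bhlhe41* (DEC2), an E-box repressor, was at rank 60 of the mirror image of *Arntl* and at rank 6 among the genes nearest to *Dbp*, with values of 1.597, 0.972 and 0.812 in WT and 0.912, 1.12 and 0.733 in KO. *Usp2*, a clock-driven deubiquitinase, was at rank 57 of that mirror image and at rank 663 (0.258) from *Dbp*. *Ciart* (CHRONO), a repressor of the ARNTL pair, had the widest range of them, at 2.06, 1.01 and 0.733 in WT and 0.359, 1.21 and 0.429 in KO. WT replicate 1 and KO replicate 2 were the highest for *Ciart*, and KO replicates 1 and 3 the lowest. It was at rank 281 (0.360) of the mirror image of *Arntl* and at rank 8899 (0.462) from *Dbp*, farther from it than a flat gene would be (0.334). The log2 change between the labelled groups was -0.88 (SE 0.52, limma adjusted p = 0.558).

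**Figure D4:**
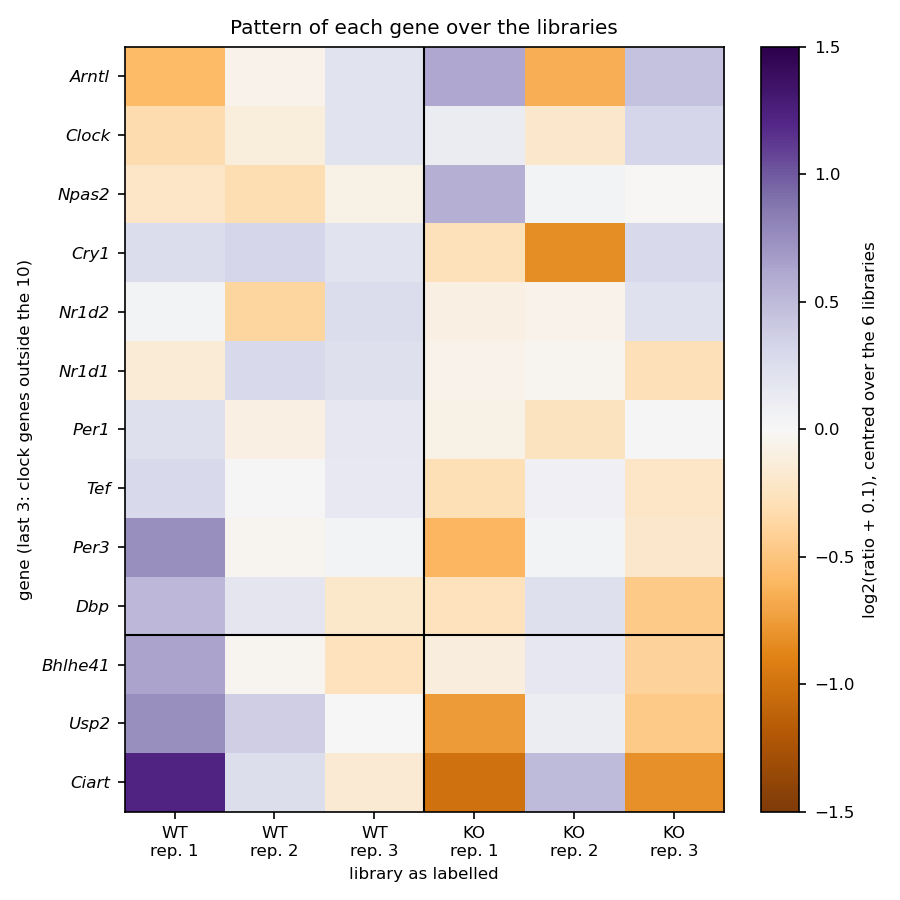
Centred log2(ratio + 0.1) (colour, purple above and orange below the gene's mean over the 6 libraries) for the 10 genes and, below the horizontal line, *Bhlhe41*, *Usp2* and *Ciart*. Columns are the libraries as labelled, with WT to the left of the vertical line. *Arntl* and *Dbp* have opposite colours in every library, faintly in WT replicate 2 (0.929 against 1.14) and strongly in WT replicate 1 (0.613 against 1.47).

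By the rule for naming like genes, the 4 nearest to *Arntl* were *Pdlim4* (0.165), *Mmgt2* (0.180), *Abcc1* (0.182) and *Tab3* (0.189), none of them a listed clock gene. The 5 nearest to *Dbp* were *Mid1ip1* (0.0736), *Sec23b* (0.0893), *Vasn* (0.104), *Alpl* (0.109) and *Akap12* (0.123). *Mid1ip1*, a regulator of fatty acid synthesis, was at 1.42, 1.09 and 0.873 in WT and 0.753, 1.09 and 0.752 in KO. This likeness rests on 6 points per gene and was not tested.

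A wider list of 20 further clock genes had 17 tested in 1 row each. Of these, 0 passed the test in either direction, 2 had an unadjusted p under 0.05 with lower values in KO (5.53% of all rows) and 0 with higher (6.5% of all rows), and the median log2 change was -0.06. *Bhlhe40* (DEC1), a repressor at E-boxes, was at 1.44, 1.07 and 1.35 in WT and at 0.768, 0.970 and 0.708 in KO. Every KO library was below every WT library, as in 10.1% of all rows (log2 change -0.60, SE 0.16, limma adjusted p = 0.262). *Timeless*, a partner of the PER and CRY proteins that also acts at replication forks, had no overlap either, with KO from 0.767 to 0.898 and WT from 0.991 to 1.58. The kinase *Gsk3b* had a log2 change of 0.23 and the ubiquitin ligase subunit *Skp1a* of 0.14, neither past the threshold. Groups did not overlap for 5 of the 17, with 2 higher in KO (8.86% of all rows) and 3 lower (10.1% of all rows). *Per2* stood in 2 rows with different values (log2 changes of -0.06 and -0.29), and was left out of the count.

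Of 18 genes listed as clock outputs in liver, 17 were tested and 0 passed. An unadjusted p under 0.05 was found for 4 with lower and 0 with higher values in KO, where 5.53% and 6.5% of all rows had one, and the median log2 change was -0.20. *Cys1*, a cilium gene, was at 1.05, 1.01 and 1.12 in WT and at 0.819, 0.837 and 0.813 in KO, a narrow range in each group with no overlap (log2 change -0.33, SE 0.07, adjusted p = 0.224). *Gys2*, the liver glycogen synthase, had a log2 change of -0.34 (adjusted p = 0.286), without overlap. *Cyp2a5*, a P450 under control of the PAR bZIP factors, had one of -0.41 (adjusted p = 0.357), also without overlap. Groups did not overlap for 3 of the 17, with 3 lower in KO (10.1% of all rows) and 0 higher (8.86% of all rows). Reads of *Cyp2a5* and the near-identical *Cyp2a4* may have been split between them. *Cyp2a4* had a log2 change in the opposite direction, of 0.82 (SE 0.72, adjusted p = 0.697), and its groups overlapped. *Usp2* had a log2 change of -0.75 (SE 0.28, adjusted p = 0.38), with WT replicate 3 at 0.935 below KO replicate 2 at 1.005. These lists were drawn up with earlier results of the data known, and their counts are descriptions.

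Genes listed for their response to glucocorticoid or temperature cues gave no common direction. Of 7 listed, 7 were tested and 0 passed, with 3 positive and 4 negative log2 changes. The heat shock gene *Hsph1* was at 1.26, 1.03 and 1.01 in WT and at 0.662, 0.775 and 0.935 in KO (log2 change -0.44, SE 0.15, adjusted p = 0.351). Its KO libraries were all below its WT libraries, as in 10.1% of all rows, and no other gene of the 7 lacked overlap. The glucocorticoid targets *Fkbp5*, *Tsc22d3* and *Zbtb16* had log2 changes of -0.23, 0.20 and -0.12. The cold-induced genes *Cirbp* and *Rbm3*, named after their values were seen, were both lowest in KO replicate 3, at 0.709 and 0.713.

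Summed markers of some other cell types stood apart between the labelled groups, although 0 genes of the lists in this paragraph passed the test, other than the muscle gene *Tnni2*. *Tnni2* was listed at 0 in all 3 WT libraries and lay between 2.26 and 2.38 in KO (limma adjusted p = 1.45e-05). It met the filter, above 0 in at least 3 libraries, only through its KO values. The size of its log2 change is set by the 0.1 added to the WT zeros, so this p is no support for a difference. Of 5 muscle markers 2 were tested, and the other, *Mylpf*, went the opposite way without overlap. *Mylpf* was at 1.20, 1.55 and 1.14 in WT and at 0.957, 0.797 and 0.294 in KO (limma adjusted p = 0.415). For T and NK cells, 8 of 8 markers were tested, none was at 0 in any library, and their summed ratio ran from 5.25 to 5.84 in WT and from 7.47 to 13.6 in KO. KO replicate 1, the highest library for *Arntl* and *Npas2*, was also the highest for this list, with a score of 0.81 against 0.30 and -0.04 in KO replicates 2 and 3. For macrophages, 8 of 8 were tested and the sum ran from 6.12 to 7.79 in WT and from 8.57 to 10.2 in KO. The sums of 7 stellate markers (5.98 to 6.85 in WT, 7.33 to 8.04 in KO) and of 6 cholangiocyte markers (3.90 to 5.31 and 5.43 to 8.76) did not overlap either. Of the stellate markers 5 had a positive and 2 a negative log2 change. Among them only the collagen genes *Col1a1* (0.73) and *Col3a1* (0.59) had every KO library above every WT library, as in 8.86% of all rows. The same held for 4 of 8 T and NK, 4 of 8 macrophage and 2 of 6 cholangiocyte markers. The sums of 7 endothelial markers (6.16 to 7.29 and 6.47 to 7.496) and of the 9 hepatocyte markers (8.97 to 9.19 and 8.41 to 8.998) overlapped. Of 8 hepatoma and proliferation markers 4 were tested, with sums of 2.73 to 3.76 and 3.72 to 5.40. The clock runs in all of these cell types, and the part of cell composition in the values of the 10 genes was not tested.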

How the data were processed

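RNA of 6 liver libraries, 3 labelled WT and 3 labelled KO, was prepared with a NEBNext Ultra RNA kit, per the labels' protocols. The submitters' processing notes name STAR 2.10, R 4.0.5 and mm10 and give them no role. The values the authors deposited are a linear ratio, read from the values as expression divided by the gene's mean over 7 libraries, 1 of them not analysed here: none exceeds 7, and 99 rows sum to 7 within 1e-09. The sources used here do not give the counter, the annotation or any earlier scaling.

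Of 12792 rows, 12578 were above 0 in at least 3 libraries and were tested with limma 3.58.1 (R 4.3.3, no mean trend) on log2(value + 0.1), with Benjamini-Hochberg adjustment over all of them. The 0.1 shrinks all log2 changes, those of low values most. Without it, among rows above 0 in all 6 libraries, *Cry1* was at -0.60 rather than -0.53. Same-numbered libraries deviated together little if at all (correlations over genes of -0.02, -0.002 and 0.09), so no block was used. Pairs of WT and KO libraries with different numbers ran from -0.08 to 0.08, so the replicate 3 pair was the most alike. The 10 genes and all lists were chosen with earlier results of these data known. Named genes are the 10, the 4 with the smallest p of each further list, and the 5 nearest to *Arntl* and to *Dbp*. The nearest genes leave out predicted genes, repeated names and names turned to dates. *Akr1d1* was named as the check of the labels, and *Camta1*, *Thra* and *Sphk2* as coding genes that overlap a member. *Per2*, *Cyp2a4*, *Afp*, the collagen genes *Col1a1* and *Col3a1* and the muscle genes *Tnni2* and *Mylpf* were named from their lists outside this rule. Others are marked as named after their values were seen. Of the genes nearest to *Arntl*, 1 is not reported here. Relative depth came from 191 rows holding a 0, where 45.7% to 69.9% of ratios to WT replicate 1 matched ratios of whole reads up to 6 (within 0.008, log2) at the best offset. Alternatives were other pseudocounts and filters, a mean trend, median centring, a replicate block and leaving out each library.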

Additional observations from a re-analysis of the deposited data

How the results depend on the processing

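No clock gene passed the threshold under any of the 13 alternatives to the test, and neither did any of the 41 further clock, output and cue genes. Of 130 repeats for the 10 genes, 128 kept the sign of the log2 change. The other 2 were *Nr1d2*, at -0.13 without WT replicate 2 and -0.05 without KO replicate 3, with a range of -0.13 to 0.20 when single libraries were left out. A mean trend, a replicate block and no filter on low values leave a log2 change as it is, so those repeats could not change a sign. The sizes depended on single libraries: leaving out each in turn gave 0.04 to 0.67 for *Arntl*, 0.04 to 0.30 for *Clock*, 0.22 to 0.51 for *Npas2*, -0.81 to -0.25 for *Cry1*, -0.65 to -0.25 for *Per3*, -0.52 to -0.15 for *Dbp*, -0.41 to -0.23 for *Tef*, -0.39 to -0.17 for *Nr1d1* and -0.30 to -0.13 for *Per1*. The smallest adjusted p of any member was 0.279, for *Cry1* without KO replicate 3. An unadjusted p under 0.05 appeared with a mean trend for *Tef* and *Npas2* (0.0454 and 0.047), without WT replicate 1 for *Nr1d1* (0.0219), without WT replicate 2 for *Per1* and *Tef* (0.0487 for both), without KO replicate 2 for *Tef* and *Arntl* (0.0197 and 0.0453), and without KO replicate 3 for *Cry1* and *Npas2* (0.007 and 0.0425). The replicate block left 0 members called, with a smallest adjusted p of 0.483, and the arm difference, a mean, stayed at 0.34. The arm difference was positive under every alternative run, from 0.17 without WT replicate 1 to 0.62 without KO replicate 2, and 0.20 with a pseudocount of 1, which compresses all changes. It could not change with a mean trend, median centring, a replicate block or no filter on low values. Total reads are unknown, so the counting error of a single value cannot be given.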
